A study of Drosophila melanogaster with 23 samples.

Results

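The gap gene loci are 5 windows of the *Drosophila melanogaster* genome that hold hunchback (hb), Krüppel (Kr), knirps (kni), knirps-related or knirps-like (knrl), giant (gt) and tailless (tll). The windows were set by position and not by any contact value. In build dm6 they were chr3R:8600001-8800000 for hb, chr2R:25150001-25280000 for Kr, chr3L:20550001-20750000 for kni and knrl, chrX:2350001-2500000 for gt and chr3R:30780001-30920000 for tll. They comprised 82 of the 13256 bins of 10 kb on the 5 large chromosome arms, and the 6 genes were members of 13865 protein-coding genes annotated there. The windows held between 7 (kni-knrl) and 39 (hb) protein-coding gene starts. The Kr window ended 0.0069 Mb from the end of its arm, so it had no usable right flank. It was also repeat-rich, with 28.8% of its bases masked as repeats against 15.7% of the arm.

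Chromosome contacts were measured by Hi-C, in which crosslinked chromatin is cut (here with DpnII), ligated and sequenced, so that each read pair records a pair of segments that lay close together in the nucleus. The series held 23 libraries in 7 groups. The 4 embryo groups were hand-staged pools of stage 5 embryos, the time of zygotic genome activation. They were control embryos of a wild-type or RNAi-collection control line (7 libraries, labelled WT, with no word on a Gal4 driver), HP1-KD embryos (5), HP1-rescue embryos (3) and H3K9M embryos (2). A Gal4 driver active in the female germ line expressed, through UAS, a short hairpin RNA against heterochromatin protein 1 (HP1) in HP1-KD mothers, the hairpin with a resistant Flag-HA-HP1 transgene in HP1-rescue mothers, and the histone variant H3.3 with lysine 9 replaced by methionine in H3K9M mothers. Depletion by the hairpin was described by the study as partial, so HP1-KD is not a null condition. The 3 S2 groups (2 libraries each) were cultured S2 cells, an established *Drosophila* line, that received double-stranded RNA against GST (S2 control) or against either of a pair of separate HP1 exon regions (S2 dsRNA 1 and S2 dsRNA 2). Libraries had been pooled by group, so each group had 1 contact map. No difference between groups could therefore be tested against replicate spread, and every interval below is a 95% interval for counting error only. Contact maps carry no expression, so stage and cell identity could not be checked against marker genes.

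Gap genes encode transcription factors that divide the early embryo into broad domains along its head-to-tail axis. Maternal gradients set where they are transcribed, they repress each other at their borders, and together they position the stripes of the pair-rule genes. hb, Krüppel, kni and gt act in the trunk and head, and tll acts at both ends under terminal signalling. knrl is a near relative of kni, and both encode orphan nuclear receptors. All belong to the set of genes transcribed as the zygotic genome is activated, when topological domains first become visible. HP1 binds histone H3 methylated on lysine 9 and is best known from pericentromeric heterochromatin.

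The promoters of 5 of the genes are printed because the results below centre on the bins that hold these starts. Each run is the 180 bases just upstream of the annotated start, read 5′ to 3′ on the strand of the gene, from the RefSeq Release 6 (dm6) genome with starts of the Ensembl 115 annotation. Capitals mark letters found by the search on either strand (GAGAG for GAGA factor, CAGGTA for Zelda, TATAAA for a TATA box), and a match on the other strand appears as its reverse complement. The positions were chr3R:8697823-8698002 on the minus strand for hb, chr3L:20695379-20695558 on the minus strand for kni, chr3L:20620660-20620839 on the minus strand for knrl, chrX:2428968-2429147 on the minus strand for gt and chr3R:30852135-30852314 on the plus strand for tll.
hb: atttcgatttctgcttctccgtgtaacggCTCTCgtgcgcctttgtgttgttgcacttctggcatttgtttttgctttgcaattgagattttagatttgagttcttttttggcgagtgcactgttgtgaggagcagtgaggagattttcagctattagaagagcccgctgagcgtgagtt
kni: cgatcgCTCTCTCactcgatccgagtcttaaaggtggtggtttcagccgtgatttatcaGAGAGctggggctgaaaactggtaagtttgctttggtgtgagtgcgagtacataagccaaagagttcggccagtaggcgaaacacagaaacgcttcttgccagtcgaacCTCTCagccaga
knrl: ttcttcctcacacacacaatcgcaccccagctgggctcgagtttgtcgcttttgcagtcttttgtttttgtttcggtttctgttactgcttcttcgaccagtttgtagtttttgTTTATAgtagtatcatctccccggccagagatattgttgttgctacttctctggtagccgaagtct
gt: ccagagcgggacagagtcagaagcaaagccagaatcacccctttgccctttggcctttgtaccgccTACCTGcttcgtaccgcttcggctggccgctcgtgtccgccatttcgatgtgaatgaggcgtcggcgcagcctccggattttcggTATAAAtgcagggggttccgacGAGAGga
tll: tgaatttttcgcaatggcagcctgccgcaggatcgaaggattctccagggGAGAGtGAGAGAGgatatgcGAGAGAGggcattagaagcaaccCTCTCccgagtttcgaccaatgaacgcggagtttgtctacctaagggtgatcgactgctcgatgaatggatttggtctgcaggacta

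Over the longer stretch from 250 bases upstream to 50 bases downstream of the start, searched on both strands, GAGAG was present at 6 of 6 gap gene promoters against 29.8% of the 13865 promoters searched. CAGGTA, the site of the pioneer factor Zelda, was present at Kr and gt, that is 2 of 6 against 6.24%. TATAAA was present at Kr, knrl and gt (3 of 6 against 45.8%). None of the 6 held CGATA (bound by the insulator protein BEAF-32, 47.3% of promoters), GGTCACAC (bound by M1BP, 7.72%) or TAATCC (bound by Bicoid, 8.74%). Overlapping GAGAG matches were counted separately. In the whole 10-kb bin that holds the start, GAGAG occurred 31 times at tll, 25 at knrl, 19 at hb and at kni, 14 at Kr and 13 at gt, against a median of 14 over 11595 bins. GAGAG was thus shared by all 6 start regions, while only tll and knrl stood high in the surrounding bin. The matches of knrl lie farther upstream than its printed bases. Each gene was searched only at the outer end of its annotation, so any promoter inside a gene, as within hb, was not covered. An absent site is thus absent from that stretch only. These are letter matches and no binding was measured.

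The control map held 299686716 recovered contacts, HP1-KD 186811760, HP1-rescue 75498428, H3K9M 63600864, and the S2 maps between 34783701 and 54067582. The share of contacts between different arms was 6.84% to 8.41% in the 7 maps. Maps differed in overall contrast. The SD of the insulation score over all bins was lowest in HP1-KD (0.334), followed by HP1-rescue (0.484), H3K9M (0.496) and control (0.576), and it was 0.720 to 0.780 in the S2 maps. A value at a gap gene that is nearer 0 in HP1-KD than in control thus stands beside the same shift across the arms, and the 2 were compared throughout.

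In control embryos the kni-knrl window was the only gap gene window with more internal contact than its arm. Window contact is given as log2 of the balanced contacts between bins 20 kb or more apart inside the window over the mean of the arm at the same distances, so 0 is the arm mean. It was 0.35 for kni-knrl (interval 0.34 to 0.35), which stood at the 96.7th percentile of 11501 windows of that length. It was -0.11 for Kr, -0.16 for hb, -0.23 for tll and -0.26 for gt, at the 35.2nd, 23.8th, 19.2nd and 15.9th percentiles. The counting intervals of these 4 were at most as wide as that of Kr, -0.12 to -0.093, so hb, tll and gt lay in that order with gaps larger than counting error. The split widened with distance. At 60 to 100 kb, kni-knrl reached 0.75 while hb was at -0.78 and gt at -1.19, and beyond 100 kb kni-knrl was at 1.05 and gt at -1.37. All of these levels rest on the balancing. Before it, gt stood at 0.57, hb at 0.17 and tll at 0.34, above 0, while Kr stood at -0.64 and kni-knrl at 0.94. The Kr level also includes the bins beside its arm end. Contact of the Kr start bin over the arm mean (log2) was 0.14 at 30 kb to the right and -3.81 at 40 kb. In HP1-KD these were 0.36 and -3.06, and in S2 control 0.42 and -2.75.

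**Figure D1:**
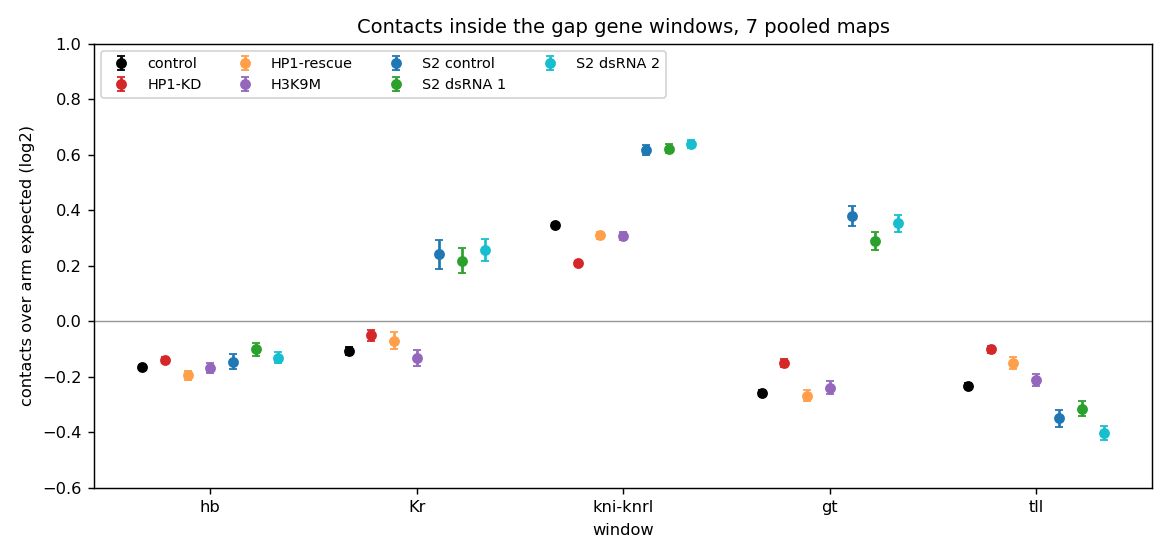
Contacts inside each gap gene window over the arm mean (y axis, log2 ratio) in the 7 pooled maps, with the windows along the x axis and bars for the 95% counting interval. The kni-knrl window lies above 0 in every map, hb and tll lie below 0 in every map, and gt is at -0.26 in control embryos and 0.38 in S2 control.

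Insulation at the gene starts placed gt, hb and tll below the arm mean, as window contact did, and Kr, kni and knrl above it. The insulation score of a bin is log2 of the mean contact across it, in a diamond reaching 100 kb to either side, minus the mean of that value over its arm, so low values mark bins that few contacts cross. In control embryos the score was -1.01 at gt, -0.60 at hb and -0.49 at tll, and it was 0.24 at kni, 0.39 at Kr and 0.71 at knrl. gt stood at the 4.80th percentile of 11526 bins, hb at the 17.1st and tll at the 21.8th, while knrl stood at the 89.3rd. The counting intervals of neighbouring genes in this order did not overlap. The diamond of Kr held 60 of 100 bin pairs, because the arm ends. The missing pairs are the most distant on its right side, and contact falls with distance. The cut itself thus tends to raise the Kr score. The last bins kept on that side made little contact with the Kr start bin. They were at -3.81, -3.44 and -3.95 (log2 over the arm mean) at 40, 50 and 60 kb, and low contact there tends to lower the score. The net direction was not measured, and the place of Kr in this order is not strictly comparable. With a 50-kb diamond, gt remained lowest at -0.91 and Kr was at 0.15. kni changed side with that diamond, to -0.13, so its place above the arm mean holds for the 100-kb diamond only.

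Domain boundaries, taken as minima of the score with a prominence of 0.2 or more, numbered 740 in control. The deep minimum near gt was centred 20 kb to the right of its start bin, over tko, boi and z, and its score was -1.15. hb had a boundary 30 kb to the left, over CG8032, CG8036, p and bel (-1.20), and the nearest to its right lay 130 kb away over CG8369, CG8379, aqz, IscU and pyd (-1.90). tll lay between boundaries 50 kb to the left (over cindr, dj-1beta and wts, -0.75) and 30 kb to the right (over Sap-r, CG15547 and CG12071, -0.53). kni had a shallow minimum 20 kb to the right (over cmpy and CG34260, -0.31), and the nearest boundary to the left of both kni and knrl was 170 kb from kni and 100 kb from knrl, over Pss, Nubp2, CG5104, mTerf3 and Rcd2 (-0.89). No boundary separated kni from knrl in the control map. The minimum nearest Kr, 40 kb to the left over CG9380, had a score above the arm mean (0.25). gt had its nearest left boundary 80 kb away, over Raf, mRpL14 and CG2841 (-0.60).

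**Figure D2:**
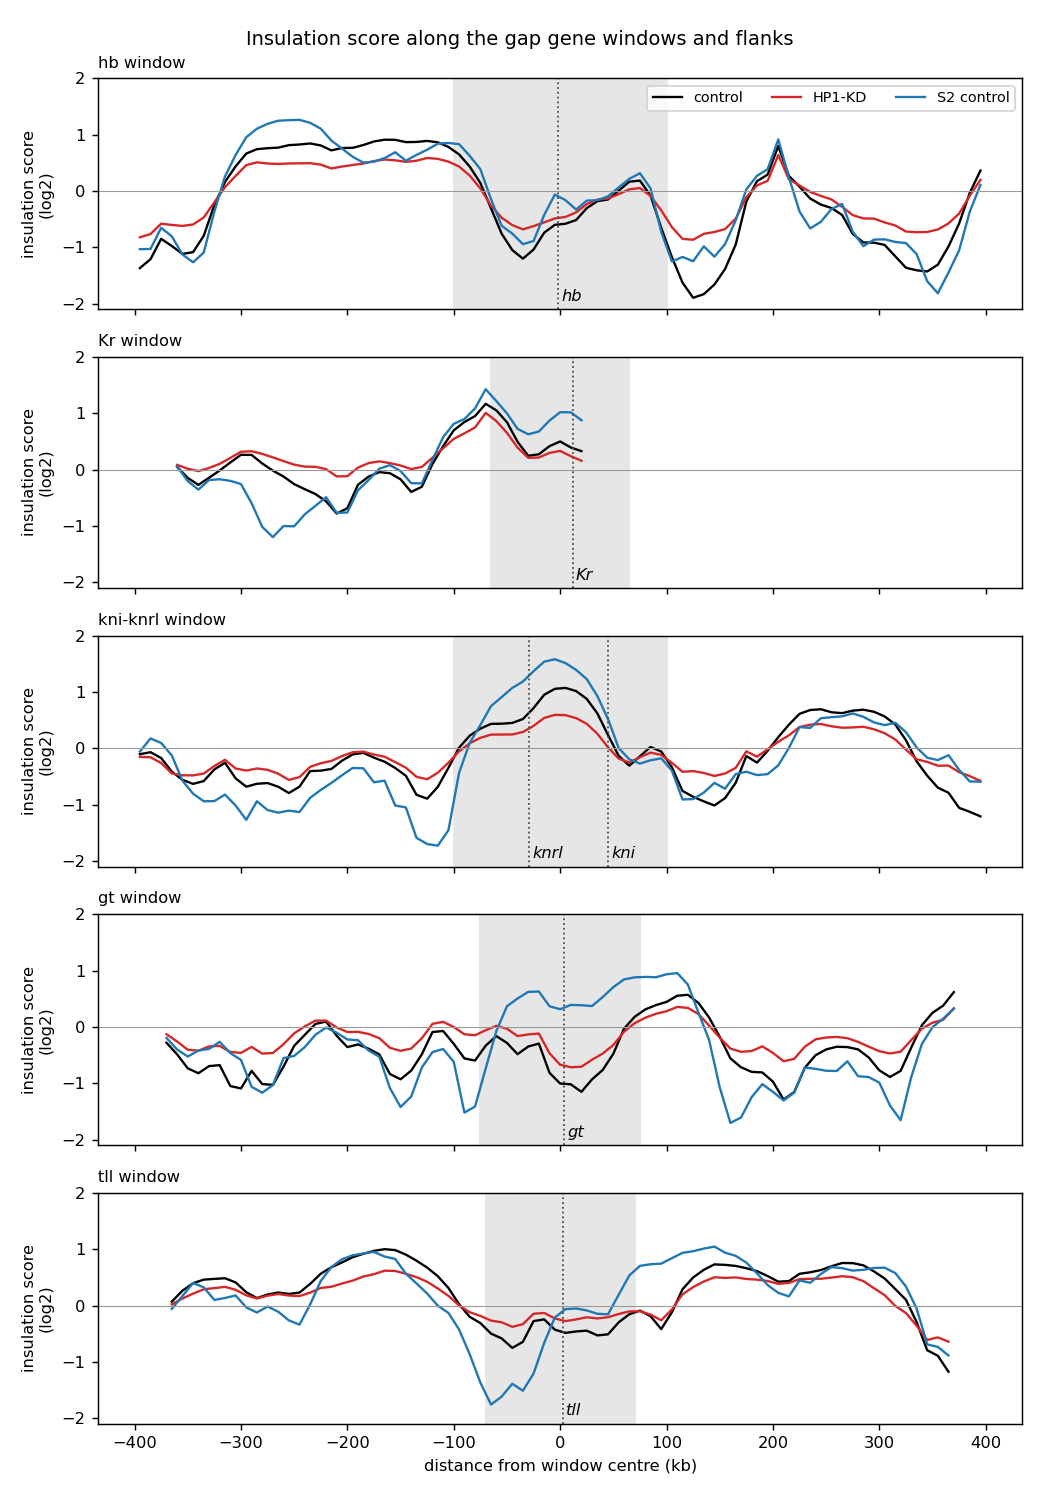
Insulation score (y axis, log2) by distance from the window's centre (x axis, kb) across each gap gene window (grey) and its flanks in the control, HP1-KD and S2 control maps, with dotted lines at the gene starts. The minimum 20 kb from the gt start is at -1.15 in control and -0.71 in HP1-KD, where S2 control is at 0.39.

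The first question was how these loci differ when HP1 is partly depleted. The contact inside the kni-knrl window was lower in HP1-KD than in control (0.21 against 0.35, difference -0.14, interval -0.15 to -0.13), at the 3.61st percentile of all windows of that length. The contact inside the other 4 windows was higher. It was -0.10 against -0.23 for tll (difference 0.13, interval 0.11 to 0.15), -0.15 against -0.26 for gt (0.11, 0.093 to 0.13), -0.051 against -0.11 for Kr (0.056, 0.033 to 0.080) and -0.14 against -0.16 for hb (0.023, 0.010 to 0.037). None of the 5 windows differed by more than 0.25, which 1.95% of 769 windows of 150 kb did. With pairs at 50 kb or more, 3 of 5 did (kni-knrl -0.31, gt 0.43 and tll 0.34), against 37.1% of windows at those distances.

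All 5 windows were nearer 0 in HP1-KD than in control, and so were 81.8% of the 769 windows. The contact between each window and its 300-kb flanks showed the same: 9 of 9 flank values were nearer 0, with a median size of 0.20 against 0.34. So were 89.8% of 1511 flanks of all such 150-kb windows, with median sizes of 0.21 and 0.38. hb made 0.60 with its left flank in control and 0.34 in HP1-KD, and -0.99 and -0.49 with its right flank. gt made -0.62 and -0.20 with its left flank. The differences were largest between distant bins. Beyond 100 kb inside the windows, kni-knrl was at 1.05 in control and 0.53 in HP1-KD, and gt at -1.37 and -0.62. At 20 to 50 kb, kni-knrl was at 0.13 and 0.096, and gt at -0.083 and -0.024.

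At the gene starts the HP1-KD score was higher than control at gt, tll and hb and lower at kni, knrl and Kr, with a median difference of -0.020 against -0.044 over 11526 bins. It was -0.67 at gt (difference 0.33, interval 0.30 to 0.37), -0.28 at tll (0.21) and -0.49 at hb (0.11). It was 0.40 at knrl (difference -0.32, interval -0.33 to -0.30), 0.018 at kni (-0.22) and 0.24 at Kr (-0.15). gt and knrl were past 0.25, that is 2 of 6, against 39.0% of bins. With a 50-kb diamond neither was (gt 0.22, knrl -0.10). The order of the 6 genes was the same in both maps. All 6 were nearer 0 in HP1-KD, as were 89.2% of the bins. In units of each map's own SD, gt was at -1.75 in control and -2.01 in HP1-KD, hb at -1.04 and -1.45, and Kr at 0.68 and 0.72, so on that scale these 3 were not nearer the mean. The other 3 were nearer, tll at -0.84 and -0.83, kni at 0.41 and 0.054, and knrl at 1.24 and 1.19.

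**Figure D3:**
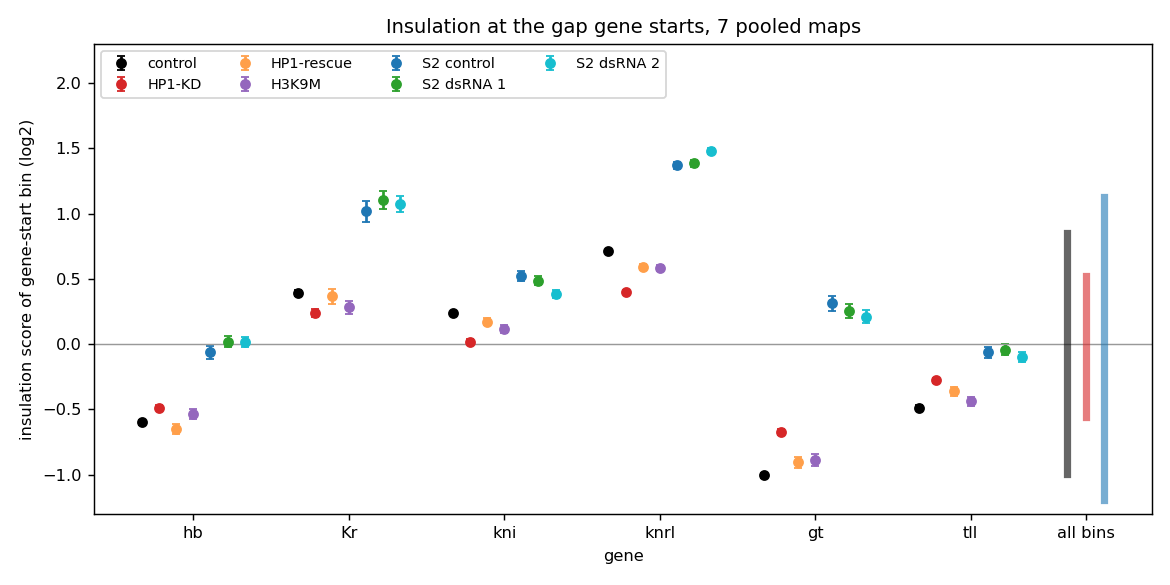
Insulation score (y axis, log2) of the 10-kb bin holding each gap gene start (x axis) in the 7 pooled maps, with 95% counting intervals and, at the right, bars from the 5th to the 95th percentile of all bins in 3 of the maps. The embryo values of gt run from -1.01 to -0.67 and its S2 values from 0.21 to 0.31, and all 6 genes are higher in S2 control than in control embryos.

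Boundaries numbered 559 in HP1-KD. The 6 control boundaries inside the windows had a median depth (the mean score 100 kb to either side minus the score at the boundary) of 0.83 in control and 0.45 in HP1-KD, and all 740 control boundaries had medians of 0.77 and 0.40. The boundary 20 kb from gt had a depth of 1.14 in control and 0.80 in HP1-KD, and that 30 kb from hb had 1.72 and 0.96. Both were called in HP1-KD. The minima to the right of kni and of tll and to the left of Kr were not. Their prominences in control, 0.33, 0.28 and 0.25, had been close to the threshold of 0.2. Of the 6, 3 were thus called within 1 bin, against 67.4% of the 740. The boundary 80 kb to the left of gt, just outside its window, was not called either, and its prominence in control was 0.43.

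The pair of kni and knrl starts, 70 kb apart, was the strongest local contact of any gap gene. In control embryos the 2 start bins made 6.26 times the contact expected on the arm (5073 contacts, interval 6.09 to 6.44). This was the ratio ranked 4 among 11511 bin pairs at that distance, for which the 99th percentile was 2.57. Each start was the other's highest partner at 30 to 300 kb. Over the 3 by 3 block of bins around the pair, the start pair itself was the highest of 9 in all maps but S2 dsRNA 2, where the neighbouring bin inside knrl was at 7.60.

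The kni with knrl ratio was 3.51 in HP1-KD (1527 contacts, interval 3.34 to 3.69), 5.33 in HP1-rescue (1002 contacts) and 5.80 in H3K9M (1025 contacts). HP1-KD thus had the lowest value of the 4 embryo maps, with rescue and H3K9M between it and control. Against control these were log2 differences of -0.84 for HP1-KD (interval -0.92 to -0.75), -0.23 for HP1-rescue (-0.33 to -0.14) and -0.11 for H3K9M (-0.21 to -0.014). The HP1-KD difference stood at the 0.356th percentile of pairs at this distance, and the HP1-rescue and H3K9M differences at the 15.6th and 27.9th. The pair still ranked 10 of 11511 in HP1-KD, where the 99th percentile of ratios was itself lower, at 1.97. Among 114 pairs past the 99th percentile in control, the median HP1-KD difference was -0.50, and the kni with knrl difference stood at the 3.51st percentile. In S2 cells the ratio was 8.50 in control (781 contacts, interval 7.91 to 9.11), 8.36 with dsRNA 1 and 7.49 with dsRNA 2. These were higher than in any embryo map. High ratios were also more common in S2 cells, with 99th percentiles of 3.37, 3.31 and 3.53, and the pair ranked 5, 6 and 8 there. The log2 difference of S2 control from control embryos was 0.44 (interval 0.33 to 0.55), at the 79.5th percentile of pairs at this distance. The S2 dsRNA differences were -0.024 (interval -0.16 to 0.11) and -0.18 (-0.32 to -0.049).

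**Figure D4:**
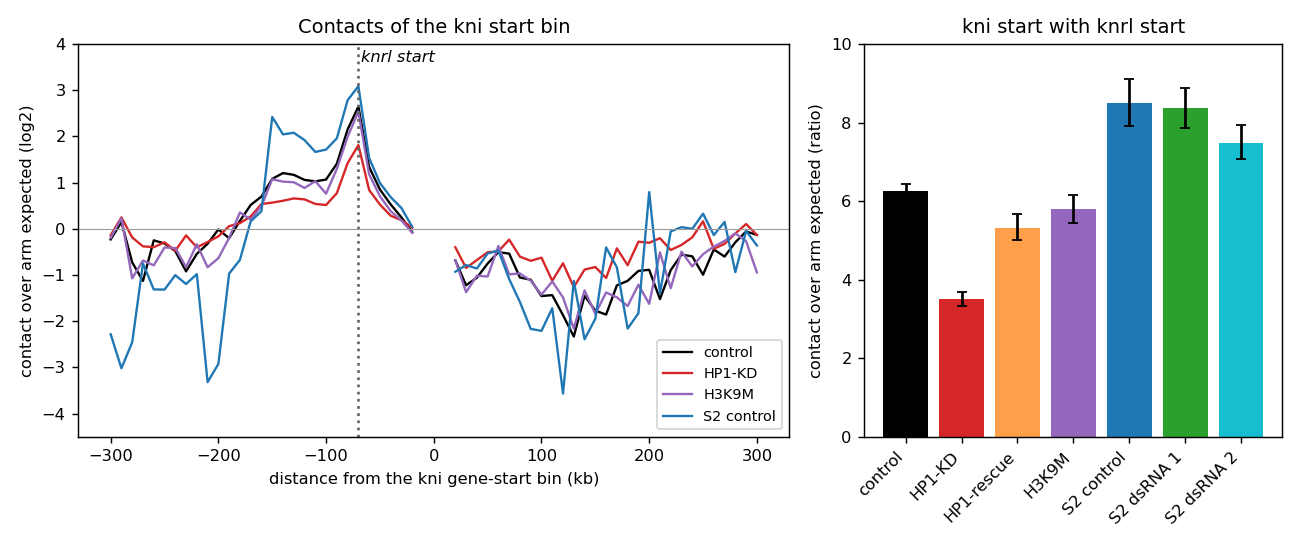
Left, contact of the kni start bin over the arm mean (y axis, log2) by distance (x axis, kb) in the control, HP1-KD, H3K9M and S2 control maps. Right, contact of the kni with the knrl start bin over the arm mean (y axis, linear ratio from 0) in the 7 maps with 95% counting intervals, from 3.51 in HP1-KD to 8.50 in S2 control.

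The HP1-rescue and H3K9M maps were nearer to control at most gap gene loci than HP1-KD was. In HP1-rescue, window contact was 0.31 for kni-knrl, -0.069 for Kr, -0.15 for tll, -0.19 for hb and -0.27 for gt. The largest difference from control was 0.081 at tll (interval 0.058 to 0.10), and 0 of 5 windows passed 0.25 (0.910% of windows did). The gene-start score was -0.91 at gt, -0.65 at hb, -0.36 at tll, 0.17 at kni, 0.37 at Kr and 0.59 at knrl, with 0 of 6 past 0.25 (4.73% of bins). hb was the exception in direction, being farther from 0 than in control (-0.65 against -0.60). Before balancing, hb differed from control by 0.093, opposite in sign to the balanced -0.051. Without balancing, gt differed by 0.29, past 0.25, and 4 of 5 window differences changed sign. In all, 3 of 5 windows and 5 of 6 starts were nearer 0 than in control, against 65.4% of windows and 79.4% of bins.

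In H3K9M, window contact was 0.31 for kni-knrl, -0.13 for Kr, -0.17 for hb, -0.21 for tll and -0.24 for gt. The largest difference from control was -0.039, at kni-knrl, and 0 of 5 passed 0.25 (0.910% of windows). Before balancing, Kr differed by 0.29, past 0.25 and opposite in sign to the balanced -0.024. Gene-start scores were -0.89 at gt, -0.53 at hb, -0.44 at tll, 0.11 at kni, 0.28 at Kr and 0.58 at knrl, and 0 of 6 were past 0.25 (3.40% of bins). All 6 starts were nearer 0 than in control, against 77.9% of bins. The differences ran from -0.13 at knrl to 0.12 at gt. HP1-KD, HP1-rescue and H3K9M were all set against the same control map. The control boundaries in the windows had median depths of 0.64 in HP1-rescue and 0.74 in H3K9M, against 0.61 and 0.63 over all 740. All 6 of them were called in both maps, as were 85.4% of the 740 in HP1-rescue and 86.5% in H3K9M.

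In S2 cells the maps with HP1 double-stranded RNA differed little from S2 control at these loci. Window contact in S2 control, dsRNA 1 and dsRNA 2 was 0.62, 0.62 and 0.64 for kni-knrl, 0.38, 0.29 and 0.35 for gt, 0.24, 0.22 and 0.26 for Kr, -0.15, -0.10 and -0.13 for hb, and -0.35, -0.31 and -0.40 for tll. The median difference over the 5 windows was 0.0035 for dsRNA 1 and 0.015 for dsRNA 2, and 0 of 5 passed 0.25 in either (0.520% and 0.390% of windows). The largest was at gt with dsRNA 1, -0.090 (interval -0.14 to -0.041), while with dsRNA 2 it was -0.027 (-0.073 to 0.020). At the gene starts 0 of 6 passed 0.25 with dsRNA 1 (1.61% of bins) or dsRNA 2 (2.53%). The largest differences were 0.085 at Kr for dsRNA 1 and -0.14 at kni for dsRNA 2. Before balancing, Kr with dsRNA 2 passed 0.25 in both measures, at 0.32 for its window and 0.37 at its start. Both dsRNA maps were set against the same S2 control map.

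In window contact, gt, Kr and kni-knrl differed more between S2 control and control embryos than between any of the pairs of maps above. It was higher in S2 control by 0.64 at gt (interval 0.60 to 0.68, 99.8th percentile of all windows), 0.35 at Kr (0.29 to 0.40) and 0.27 at kni-knrl (0.25 to 0.29). It differed by 0.018 at hb (interval -0.0090 to 0.046) and -0.12 at tll (-0.15 to -0.086). gt, Kr and kni-knrl thus passed 0.25, 3 of 5, against 26.4% of windows. Before balancing, the Kr difference had the opposite sign (-0.23), and so had that of tll (0.24, and 0.15 with pairs at 50 kb or more). The coverage of the Kr window was 0.42 of the arm median in S2 control and 0.55 in control embryos. gt stood at the 15.9th percentile of windows in control embryos and at the 87.5th in S2 control.

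Gene-start scores were higher in S2 control at all 6 genes, against 53.4% of bins. In that direction 6 of 6 were past 0.25, against 3246 of 11526 bins. In either direction 54.6% of bins were past it. The score was 0.31 at gt (difference 1.32, interval 1.26 to 1.38, 99.7th percentile), 1.37 at knrl (0.66), 1.02 at Kr (0.62), -0.061 at hb (0.54), -0.064 at tll (0.42) and 0.52 at kni (0.28). With this 100-kb diamond hb and tll were near the arm mean in S2 control, and their intervals overlapped (-0.11 to -0.013 and -0.11 to -0.019). With a 50-kb diamond they stood above it in S2 control, at 0.31 and 0.39, and gt was at -0.029. Before balancing, Kr differed by -0.065 and the other 5 kept their direction. The boundary over tko, boi and z was called in the 4 embryo maps, with scores from -1.15 to -0.71, and in none of the S2 maps, where the bin scored 0.34 to 0.39. In S2 control a minimum fell at the gt start bin itself, at 0.31, above the arm mean. To the left of gt, the boundary over Raf, mRpL14 and CG2841 was at -0.60 in control embryos and -1.41 in S2 control. To the left of tll, an S2 control minimum of -1.76 lay 70 kb away over wts and zfh1, where control embryos scored -0.50. The boundary over Pss and its neighbours beside knrl had a depth of 1.05 in control embryos and 2.01 in S2 control. Embryos and S2 cells differ in tissue, sex, genotype and culture as well as in depth of sequencing, and these cannot be told apart here.

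Among bins 30 to 300 kb from the other starts, the highest ratios of Kr and tll rested on more contacts than those of gt and hb. Kr had its 3 highest ratios with bins inside lov, a neighbouring gene for a BTB-domain protein, 110 to 130 kb to its left. The highest was 2.58 in control (570 contacts), 2.03 in HP1-KD, 2.14 in HP1-rescue, 1.98 in H3K9M and 2.60 in S2 control (43 contacts). tll had its highest ratio with the bin that holds the start of zfh1, a zinc-finger and homeodomain transcription factor, 90 kb to its left. In embryos the ratio ran from 1.23 (control, 580 contacts) and 1.24 (H3K9M) through 1.33 (HP1-KD) to 1.53 (HP1-rescue). It was 0.12 in S2 control (8 contacts), 0.14 with dsRNA 1 (10) and 0.12 with dsRNA 2 (10). The S2 boundary over wts and zfh1 lay between them. gt with its own highest partner, the bin of ph-p, a Polycomb group gene, made 1.52 times the expected contact on only 32 contacts, and hb made 1.04 with bins inside CG45263 on 45. Both pairs were the highest of many candidates and rest on few contacts.

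Between windows on different arms, gt, Kr and tll made more contact with each other in embryos than the mean of their arms. gt with tll made 7.51 times the mean between those arms in control (772 contacts, interval 6.99 to 8.06), 7.57 in HP1-KD (6.84 to 8.34), 8.54 in HP1-rescue (7.33 to 9.89) and 8.68 (7.41 to 10.1) in H3K9M. Kr with tll made 5.95 in control (5.40 to 6.54), 9.85 in HP1-KD (8.88 to 10.9), 7.72 in HP1-rescue and 7.54 in H3K9M. Kr with gt had its lowest embryo value in H3K9M (5.28) and its highest in HP1-KD (7.26), with control at 5.61 and HP1-rescue at 6.48. hb with kni-knrl, on the arms of 1 chromosome, made 2.20, 2.36, 1.86 and 1.96 in the same order. The remaining 5 of 9 such pairs were below 1 in every embryo map. Other pairs of windows on these arms were not measured, so how usual such counts are is not known. In S2 control, gt with tll made 1.40 on 11 contacts (interval 0.70 to 2.51), Kr with gt 0.32 on 1 contact (0.0081 to 1.79) and Kr with tll 2.52 on 22. hb and tll, far apart on 1 arm, made 1.57 times the mean at their distance in control (66 contacts, 1.22 to 2.00) and 1.04 in HP1-KD (40 contacts, 0.74 to 1.42).

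Position along the arm moved with these values. gt, tll and Kr lay 2.35 Mb, 1.16 Mb and 0.0069 Mb from the telomeric end of their arms, and hb and kni-knrl lay farther inside. Each pair was therefore also set against the bins within 500 kb of both windows, a measure added after the first values were seen. On that scale, gt with tll was at 1.49 in control (interval 1.39 to 1.60) and at 1.73, 1.86 and 2.19 in HP1-KD, HP1-rescue and H3K9M. Kr with tll was at 1.50 (1.36 to 1.65), 2.23 (2.00 to 2.48), 1.97 and 1.90, and Kr with gt at 1.46, 1.83, 1.72 and 1.35. hb with kni-knrl was at 0.89 in control (0.83 to 0.95). Most of the excess over the arm mean was thus shared by the surroundings, and in S2 control the intervals held 1, at 0.86 for gt with tll (0.42 to 1.55) and 0.89 for Kr with tll (0.55 to 1.36). These S2 intervals reach into those of control embryos. With dsRNA 1 and 2, gt with tll was at 1.66 (1.04 to 2.52) and 1.37 (0.90 to 2.00), and Kr with tll at 1.13 (0.77 to 1.61) and 0.84 (0.56 to 1.20). The HP1-KD interval lay above that of control for Kr with tll, for hb with kni-knrl (1.06, interval 0.97 to 1.17) and for Kr with kni-knrl (1.63, 1.05 to 2.44, on 25 contacts, against 0.46, 0.31 to 0.66, on 31). The H3K9M interval lay above that of control for gt with tll (1.86 to 2.57), where the HP1-KD interval (1.56 to 1.91) overlapped control. No HP1-rescue interval lay clear of control.

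**Figure D5:**
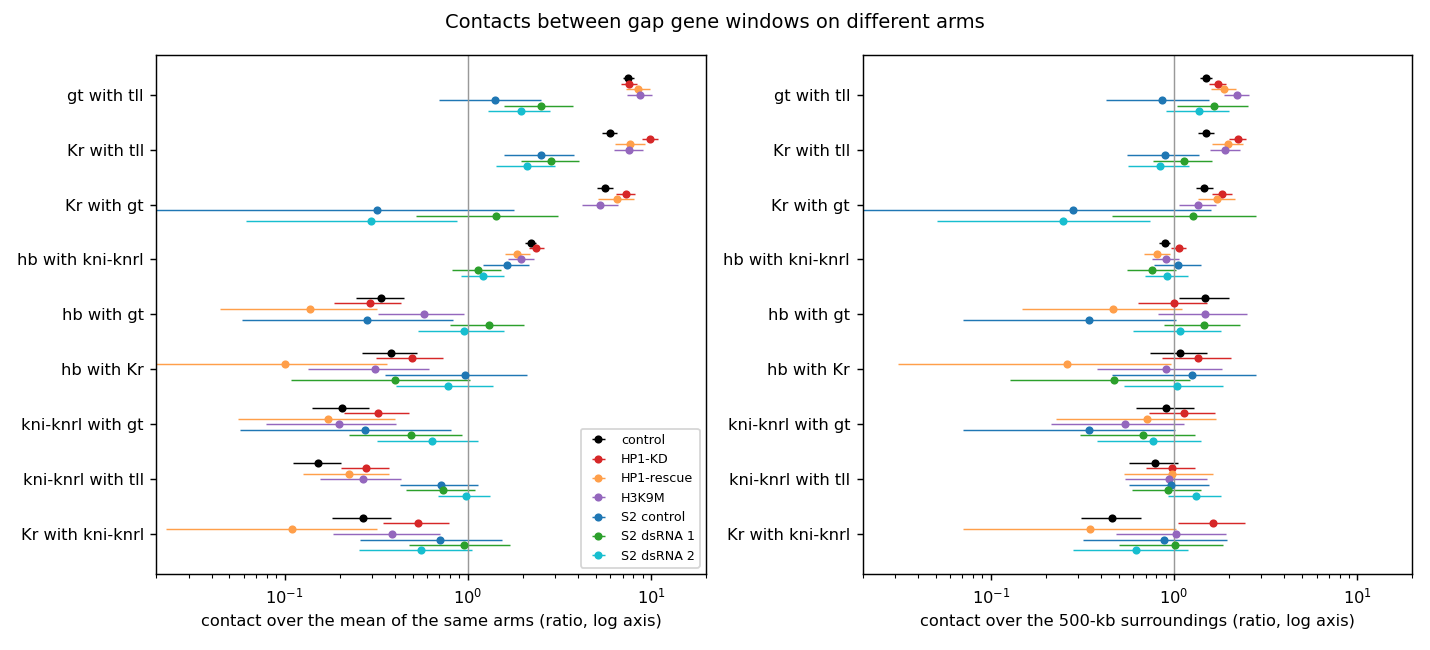
Contacts between gap gene windows on different arms (x axes, ratio on a log scale) by pair (y axis) in the 7 pooled maps, over the mean of the arms on the left and over the 500-kb surroundings on the right, with 95% counting intervals. gt with tll is at 7.51 over the arm mean and at 1.49 over its surroundings in control.

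The gap genes were set beside 19 other genes of the anterior-posterior hierarchy: the maternal bcd, nanos, cad and tor, the terminal and head genes hkb, btd, oc, ems, cnc and croc, and the pair-rule genes eve, ftz, h (hry in the annotation), run, odd, opa, prd, slp1 and slp2. In HP1-KD against control, 6 of the 19 start scores were higher by more than 0.25 and 2 were lower, against 39.0% of bins past it either way, with a median of 0.20 against -0.044 over all bins. Those higher were opa (0.50), prd (0.43), croc (0.36), btd (0.29), bcd (0.27) and cad (0.27), and all 6 were below the arm mean in control, between -1.04 at cad and -0.80 at bcd. The 2 lower were oc and ftz (both -0.27), which stood above the arm mean in control (0.23 and 0.73). The gap genes had the same arrangement, with gt (-1.01 in control) higher and knrl (0.71) lower. All of these scores were nearer 0 in HP1-KD than in control, as were 89.2% of bins. No window of the 19 passed 0.25. In HP1-rescue 1 of 19 scores did (nanos, 0.27) and in H3K9M 1 did (opa, 0.25). In S2 control against control embryos, 9 of 19 were higher and 3 lower, against 54.6% of bins past 0.25 either way, with a median of 0.20, whereas the gap genes had a median of 0.58 and none was lower.

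Genes whose start scores were closest to a gap gene over the 7 maps, by Euclidean distance in log2 units and more than 500 kb away from all members, were named as a description. The nearest to gt was zld, which encodes Zelda, at a distance of 0.13. The control, HP1-KD, HP1-rescue and H3K9M scores were -1.00, -0.62, -0.95 and -0.93 at zld against -1.01, -0.67, -0.91 and -0.89 at gt. In S2 cells zld was at 0.29 to 0.30 and gt at 0.21 to 0.31. N, the Notch receptor gene, was the next at 0.28. knrl was nearest to comm (0.069), which encodes a sorting factor of axon guidance, and to CG42570 (0.11). tll was nearest to shd (0.11) and l(2)k09913 (0.13), kni to Prx1 (0.11) and CG17134 (0.14), Kr to CG34161 (0.11) and 18w (0.14), and hb to mira and CG34217 (both 0.17).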

How the data were processed

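The 23 Hi-C libraries were grouped by their labels, and 7 pooled maps were analysed. Per the submitters' processing notes, HiC-Pro 2.11.1 and build dm6 were used. The authors deposited, for pairs of 10-kb bins, a contact signal that had been balanced iteratively, and all maps have the same sum. Whether all 5 HP1-KD libraries entered the HP1-KD map was not settled by its name, and the S2 control map was assigned by its name. Balancing removes differences in coverage between bins, and so also real ones. Whole contacts were recovered from the steps of the low values (99.92% to 100% whole within 0.02), so depth is counted in contacts, and counting intervals are exact Poisson or, for ratios of maps, conditional binomial (95%). Pericentromeric bins were left out of arm means, which left 11595 bins. Window contact used pairs at 20 kb or more, and insulation a 100-kb diamond. A difference past 0.25 (log2) was counted without a test. Scripts used Python 3.11.15 with matplotlib 3.10.9, pandas 2.3.3, scipy 1.17.1 and numpy 2.4.6 and were tested on simulated maps. Named genes were the members, the genes over their nearest control boundaries, their 3 highest partner bins, patterning genes past 0.25 in HP1-KD and the 2 genes with the most similar scores. Other genes at S2 boundaries were named after their values were seen. The members and lists were chosen with earlier results of these data known. Alternatives were contacts before balancing, maps thinned to the within-arm contacts of the shallowest map, pairs at 50 kb or more, arm means with pericentromeric bins, shortened windows, diamonds of 50 and 200 kb and a mean of 3 bins.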

Additional observations from a re-analysis of the deposited data

How the results depend on the processing

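No paired analysis was possible because each group had 1 pooled map, so no replicate could be left out either. Over the 12 median differences, the alternatives stayed within 1 SD over the members except with pairs at 50 kb or more, where the window median was 0.22 in HP1-KD (0.056 with pairs at 20 kb or more), 0.068 in H3K9M (-0.0053) and -0.024 in S2 dsRNA 2 (0.015). Of the 11 single differences past 0.25, 54 alternative values included 2 with the opposite sign, both for Kr in S2 control against control embryos before balancing: window contact -0.23 (0.35 with balancing) and gene-start insulation -0.065 (0.62). In all 5 values, these 2 included, were no longer past 0.25. Over all 66 differences, 40 of 324 alternative values changed sign. Thinning kept 65 of 77 levels inside their interval, with a largest difference of 0.065. Before balancing none of the 77 levels was inside and 37 changed sign, so levels depend on it. Differences depend on it too. Among window differences, sign changes before balancing ran from 0 of 5 in HP1-KD to 4 of 5 in HP1-rescue. Among gene-start differences, at most 1 of 6 changed sign in any comparison. Sizes also moved, as for gt window contact in S2 control against control embryos (0.64, and 0.37 before balancing). A 200-kb diamond could not be computed for Kr. Without Kr, whose diamond is cut by the arm end, the median insulation difference was 0.11 in HP1-KD (-0.020 with it), an alternative chosen after seeing the data, as was the comparison with 500-kb surroundings. The cause of these differences was not tested. Depth limits contacts between arms in S2 maps, where pairs of windows rest on as few as 1 contact.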

Other observations

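A single 10-kb bin of 3L, chr3L:20180001-20190000 was left out of the surroundings because its contacts with X were concentrated in a few bin pairs. It made 4426 contacts with X in control, with 857 in its highest bin pair (with chrX:2740001-2750000). The highest pair held 337 contacts in HP1-KD, 168 in HP1-rescue, 138 in S2 control, 214 in S2 dsRNA 1 and 277 in S2 dsRNA 2. In H3K9M the bin made 84 contacts with X in all, and the highest pair held 2.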
